A study of Mus musculus with 2 samples.

Results

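Hox genes encode homeodomain transcription factors that stand in 4 clusters and set positional identity along the body axis and in the reproductive tract. The mouse genes were described here in 1 list of N4-acetylcytidine (ac4C) peaks from the uterus. Members were all protein-coding genes of the RefSeq GRCm38 table whose symbol is Hox followed by a, b, c or d and a number, which gave 39 genes of the 21900 protein-coding genes in the table. A peak belonged to a gene when its summit lay in the gene's span, introns included, and 48 of the 21192 peaks belonged to a Hox gene in this way.

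The series holds 2 libraries of polyA RNA, 1 ac4C immunoprecipitation and 1 input control, and both come from whole uterus of wild-type animals at gestational day 4. In acRIP-seq, an antibody enriches RNA fragments that carry ac4C, a cytidine with an acetyl group, and these are sequenced along with input RNA. No treatment, age or count of pooled animals is given in the sources used here, and there were no replicates, so no value below has a replicate check and no p-value was calculated. Fewer cells of a type and less RNA per cell cannot be told apart in such whole-tissue samples.

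The value of a peak is its fold enrichment, the ratio of immunoprecipitation signal to background at the summit, as given by the authors' peak caller. It is the authors' value and was used here to describe and rank peaks. The number of fragments at each summit, and the background in the same unit, were worked back from the deposited ratio and its p-value. Intervals in brackets after a fold enrichment are exact 95% Poisson intervals of the fragment number and cover counting error of the immunoprecipitation only. Over all peaks the median was 22 fragments (range 4 to 390). A peak shows enrichment of a transcript and not its level. Of all protein-coding genes, 30.7% held a peak. All 5 uterine markers (Pgr, Esr1, Hand2, Foxa2 and Wnt4), all 4 stromal, all 4 myometrial and all 3 endothelial markers held a peak, as did 4 of 5 epithelial markers (not Epcam) and 1 of 3 leukocyte markers (Cd68, but not Ptprc or Adgre1). Of 9 genes listed as markers of oviduct, ovary, fat and embryo, 2 did. These were Foxl2 at 16.2 (12.1 to 21.2) on 50 fragments and Amh at 4.16 (1.9 to 8.35) on 6, both listed for ovary. Whether these 2 peaks came from ovary was not tested, and neither was the part of such tissue in the Hox peaks.

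Hox genes lie within a cluster in the order in which they act along the body, with anterior genes at the 3′ end and posterior genes at the 5′ end, all transcribed the same way. Genes with the same number in different clusters are paralogues. In the female tract, posterior HoxA genes are known to mark successive segments from oviduct to vagina. Hoxa10 and Hoxa11 are known for their part in uterine receptivity and in the response of the stroma to the embryo.

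Sequence could be shown where a peak met a window of the RefSeq promoter table (250 bases before to 50 bases after a gene start, GRCm38.p6), which has an entry for 22 of the 39 genes. Each stretch is given 5′ to 3′ on the strand of the Hox genes, lies inside a peak, and is shown because that peak is described below. Exons and introns were not told apart. Capitals mark runs of CNNCNNCNNCNN, 4 triplets that begin with C, a pattern that has been described at ac4C sites. Matches may overlap each other. The stretch of the highest Hoxa11 peak, from the window of Hoxa11os and beside the summit, is chr6:52245030-52245292, on the minus strand, and that of the wide Hoxa10 peak is chr6:52234940-52235039, also on the minus strand, just before the inner of the 2 Hoxa10 starts in the table. Hoxb2, from the window of Hoxb3os, and Hoxd8, from that of Gm38462, are shown as chr11:96353345-96353610 and chr2:74705579-74705851, on the plus strand. Hoxd11 is shown as chr2:74682082-74682322, on the plus strand, up to the base before a gene start. That stretch lies in the Hoxd11 peak of 5.44 and not in the highest Hoxd11 peak, of 9.90. The last pair, chr11:96318023-96318123 and chr2:74697641-74697741, both on the plus strand, are 101 bases centred on summits that lay upstream of the starts of Hoxb4 and Hoxd9.
Hoxa11: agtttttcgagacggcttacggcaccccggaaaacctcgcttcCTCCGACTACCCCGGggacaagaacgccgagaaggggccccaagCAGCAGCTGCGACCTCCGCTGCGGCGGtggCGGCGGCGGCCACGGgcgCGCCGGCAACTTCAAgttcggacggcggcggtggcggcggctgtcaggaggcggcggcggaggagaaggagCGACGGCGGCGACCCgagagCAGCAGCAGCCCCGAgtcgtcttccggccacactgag
Hoxa10: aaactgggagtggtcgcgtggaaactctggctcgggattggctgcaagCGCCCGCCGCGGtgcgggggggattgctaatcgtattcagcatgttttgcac
Hoxb2: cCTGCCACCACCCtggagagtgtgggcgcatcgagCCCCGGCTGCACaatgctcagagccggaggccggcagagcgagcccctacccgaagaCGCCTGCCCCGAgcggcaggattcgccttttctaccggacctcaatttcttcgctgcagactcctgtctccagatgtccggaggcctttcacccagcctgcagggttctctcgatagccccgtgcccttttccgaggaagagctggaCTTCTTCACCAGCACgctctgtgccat
Hoxd8: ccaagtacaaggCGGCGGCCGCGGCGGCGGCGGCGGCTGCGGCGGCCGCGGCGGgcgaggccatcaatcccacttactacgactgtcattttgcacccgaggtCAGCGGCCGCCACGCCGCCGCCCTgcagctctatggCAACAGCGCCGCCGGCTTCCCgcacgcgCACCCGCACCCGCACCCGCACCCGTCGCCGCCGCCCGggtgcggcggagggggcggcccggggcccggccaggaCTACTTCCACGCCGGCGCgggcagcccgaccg
Hoxd11: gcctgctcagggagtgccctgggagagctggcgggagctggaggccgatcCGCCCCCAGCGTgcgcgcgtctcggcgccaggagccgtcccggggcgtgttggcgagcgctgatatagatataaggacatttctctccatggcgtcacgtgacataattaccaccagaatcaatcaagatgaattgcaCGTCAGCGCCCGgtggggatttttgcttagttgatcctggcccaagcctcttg
Hoxb4 upstream: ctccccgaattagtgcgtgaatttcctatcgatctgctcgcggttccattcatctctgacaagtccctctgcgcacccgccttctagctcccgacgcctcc
Hoxd9 upstream: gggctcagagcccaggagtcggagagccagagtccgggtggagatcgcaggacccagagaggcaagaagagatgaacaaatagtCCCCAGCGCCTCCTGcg

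These stretches differed in how much of the pattern they held. The Hoxd8 stretch of 273 bases held 30 matches on the Hox strand and 24 on the other strand, and its GC content was 78.0%. As many matches on the gene strand were found in 0.240% of the 32851 windows cut to the same length. The Hoxa11 stretch of 263 bases held 16 matches and 28 on the other strand, with 2.13% of windows holding as many as 16. The Hoxb2 stretch held 5 and 0, a count reached by 21.9% of windows. The Hoxa10 stretch held 1 match in 100 bases and 2 on the other strand, the Hoxd11 stretch 2 and 2, the Hoxd9 stretch 2 and 1, and the Hoxb4 stretch 0 on either strand. At least 1 match on either strand is present in 60.0% of windows cut to 101 bases, 59.7% of those cut to 100 and 85.3% of those cut to 263. The windows lie at gene starts, so they describe base composition there and not in peaks as a whole.

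Peaks were found in 22 of the 39 Hox genes (56.4%, 95% Wilson interval 41.0 to 70.7%), against 30.7% of all protein-coding genes. Hox genes are short, the median span being 3.74 kb, where that of all protein-coding genes was 17.1 kb. Of genes with spans from 1784 to 44009 bp, the shortest and longest of the Hox genes, 29.6% held a peak. Neighbouring Hox genes overlap and share transcripts, so the genes are not independent and the interval describes counting only. Transcript abundance was not part of the comparison. With peaks of −log10 q of at least 10, 13 Hox genes held a peak (33.3%), against 17.6% of all protein-coding genes.

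**Figure D1:**
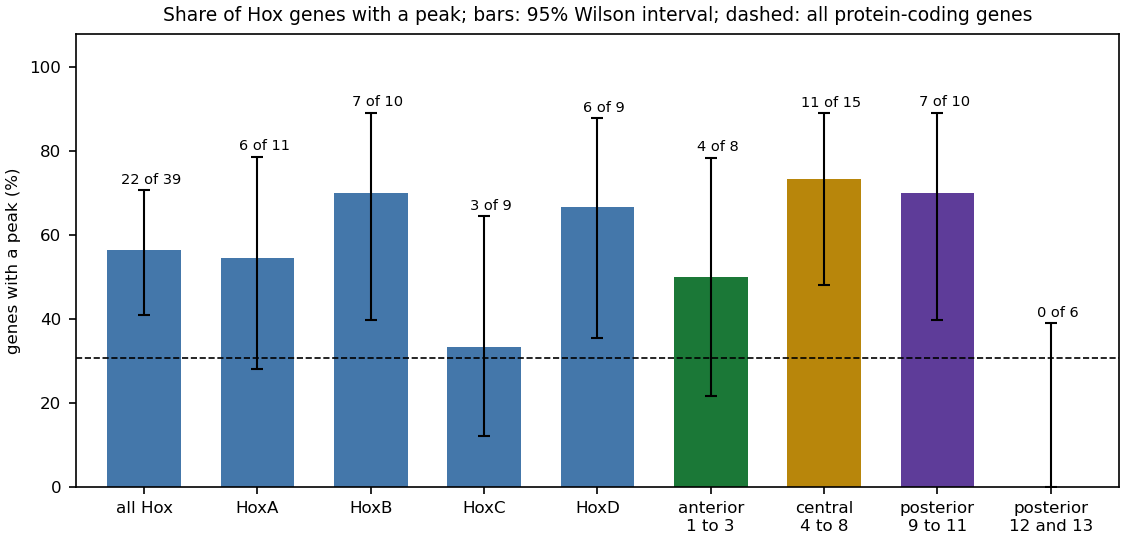
Percentage of Hox genes with a peak (vertical axis) for all 39 genes, for each cluster, and for anterior, central and posterior paralogue groups, with the counts above each bar. Error bars are 95% Wilson intervals, and the dashed line marks the 30.7% of all protein-coding genes with a peak; the bar for groups 12 and 13 is at 0.

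The Hox genes with a peak did not stand above other genes in its height. The median fold enrichment at the highest peak of the 22 genes was 5.65 (range 2.89 to 19.3), against 6.61 (interquartile range 5.05 to 9.06) over all 6717 protein-coding genes with a peak, and 9 of the 22 lay above that median. A single summit was found in 7 of the genes, 2 summits in 8, and 3 or more in 7. The last count is 17.9% of the 39 genes, against 11.9% of all protein-coding genes. With overlapping stretches counted once, the spans of the Hox genes held 1.72 peaks per 10 kb. Over the spans of all protein-coding genes, most of which are longer, the figure was 0.193 per 10 kb.

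Assignment to a gene was not always to a single gene. Of the 48 peaks, 7 had their summit in a pair of Hox spans, since the long spans of Hoxa3, Hoxb3 and Hoxd3 run across Hoxa5, Hoxa6, Hoxb4 and Hoxd4. With summits in exactly 1 protein-coding span, 18 Hox genes (46.2%) held a peak, against 29.1% of all protein-coding genes; the 4 that dropped out were those enclosed genes. In all, 18 summits, 2 of them in the count of 7, also lay in a non-coding RNA gene, and the list gives no strand. Among these genes were Hoxa11os, Hoxb3os and Hoxb5os, named as opposite-strand transcripts. With summits in exactly 1 gene of any kind, 12 Hox genes (30.8%) held a peak, against 27.9% of all protein-coding genes. The genes lost under that rule include Hoxa11, Hoxb2, Hoxb5 and Hoxb6. Under that rule the Hox share was close to that of all protein-coding genes. With every summit in the span counted, the Hox share was 56.4% against 30.7%.

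The 4 clusters held unequal numbers of peaks. HoxD had 18 peaks in 6 of its 9 genes, HoxB had 16 in 7 of 10, HoxA had 10 in 6 of 11, and HoxC had 4 in 3 of 9. The shares of genes were 66.7%, 70.0%, 54.5% and 33.3%, against 30.7% of all protein-coding genes, so that of HoxC was close to the general share. The 95% Wilson intervals of HoxA (28.0 to 78.7%) and HoxC (12.1 to 64.6%) both included the 30.7%. The HoxB share counts Hoxb2, Hoxb4, Hoxb5 and Hoxb6, none of which held a summit in exactly 1 gene of any kind. The same was true of Hoxa5, Hoxa6, Hoxa11, Hoxc4, Hoxd4 and Hoxd8. The 95% intervals of the shares of genes overlapped for every pair of clusters. Per 10 kb of gene span the counts were 2.73 for HoxD, 2.13 for HoxB, 1.36 for HoxA and 0.628 for HoxC. The HoxC peaks rested on 9 to 19 fragments over backgrounds of 0.438 to 3.50, while HoxD peaks rested on 13 to 80 and HoxA peaks on 8 to 124. With −log10 q of at least 10 HoxC held 0 genes with a peak and HoxB 6. Where a gene held no peak its background was not given, so a missing peak means only that no enrichment was called and does not show a missing mark or transcript.

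**Figure D2:**
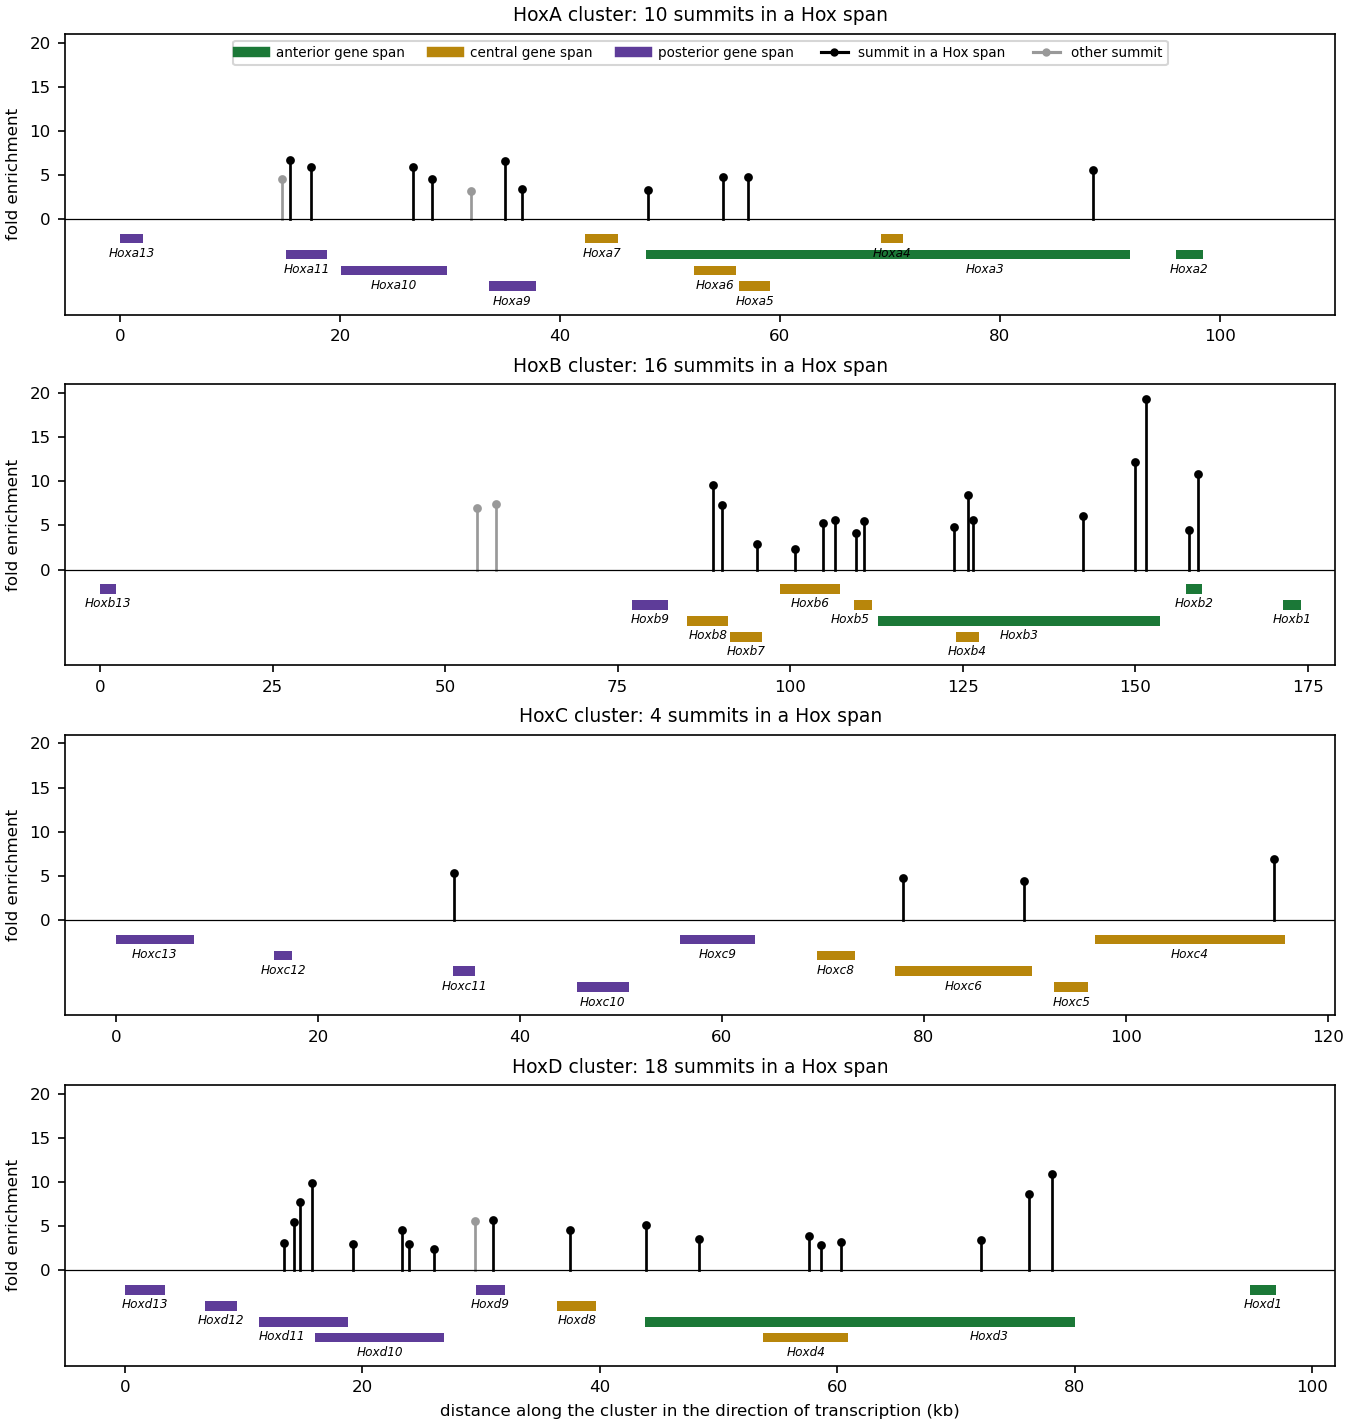
Maps of the 4 clusters, each drawn in the direction of transcription from its most posterior gene (horizontal axis, kb), with gene spans as coloured bars (not every gene is drawn) and the fold enrichment of each peak as a stem at its summit (vertical axis). HoxC holds 4 black stems (summit in a Hox span) against 18 in HoxD, grey stems being other summits, and the tallest stem, 19.3, stands near the 3′ end of the Hoxb3 span.

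Peaks in posterior genes, those of groups 9 to 13, fell in groups 9 to 11 only. Of 16 posterior genes 7 held a peak (43.8%), against 30.7% of all protein-coding genes. All 7 were among the 10 genes of groups 9 to 11, of which 3 held none. Of the 6 genes of groups 12 and 13, 0 held a peak (Wilson interval 0 to 39.0%), and that interval includes the 30.7%. In groups 9 to 11 the peaks were those of HoxA and HoxD, where 6 of 6 genes held a peak with 15 peaks together, against 1 of 4 genes and 1 peak in HoxB and HoxC. These subdivisions were made after the values were seen. Anterior genes of groups 1 to 3 held a peak in 4 of 8 cases and central genes of groups 4 to 8 in 11 of 15, beside the same 30.7%. The Wilson intervals were 21.5 to 78.5% for anterior, 48.0 to 89.1% for central and 23.1 to 66.8% for posterior genes. The count of central genes was 7 with summits in exactly 1 protein-coding span and 4 with −log10 q of at least 10. With summits in exactly 1 gene of any kind, the central genes left were Hoxb7, Hoxb8 and Hoxc6. Under that rule 27.9% of all protein-coding genes held a peak, and the only other Hox genes lost were Hoxb2 (anterior) and Hoxa11 (posterior).

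**Figure D3:**
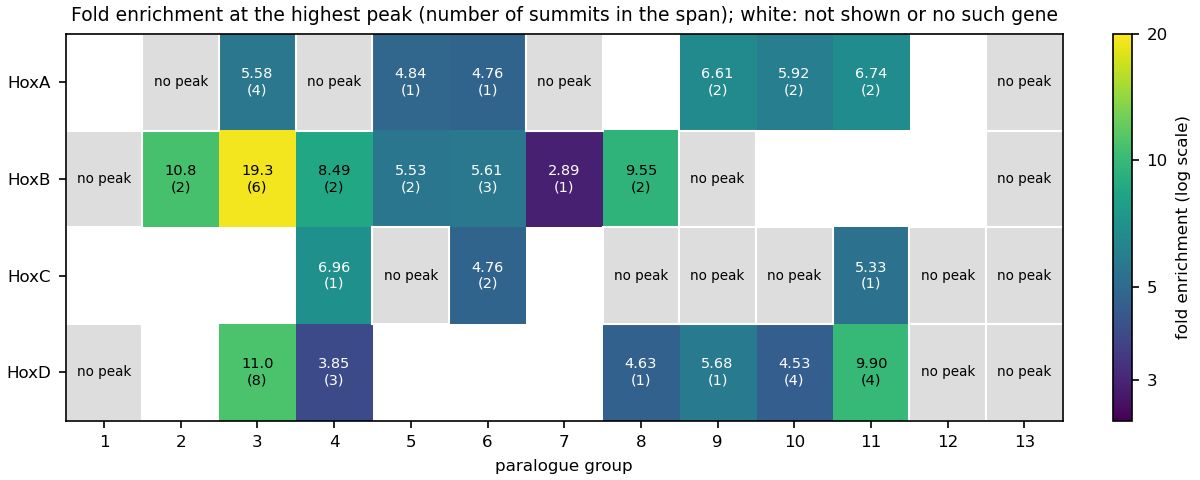
Grid of the 4 clusters (rows) by paralogue group (columns), with the fold enrichment at the highest peak as colour on a log scale and as a number, and the number of summits in the span in brackets. White cells are not shown or have no gene. Groups 12 and 13 hold no peak in any cluster, while groups 3, 6 and 11 hold a peak in every cluster that has a member.

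Hoxa10, which is required in the uterus for normal implantation, held 2 peaks (NCBI gene 15395; chromosome 6, 52231197 to 52240854, minus strand). The first, at 52233245 to 52235039, was the widest Hox peak at 1795 bp. Its fold enrichment was 5.92 (4.54 to 7.60) on 60 fragments over a background of 9.30. Its summit lay 658 bp downstream of the inner Hoxa10 start, and its upstream edge covers the stretch printed above. The other peak, at 52232391 to 52232929, stood at 4.51 (3.76 to 5.37) on 124 fragments over a background of 26.7, the deepest summit and the highest background of any Hox peak. That summit also lay in Gm52902, a non-coding RNA gene. The intervals of the 2 peaks overlapped.

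Hoxa11, the neighbouring gene that is also needed for uterine stromal function, likewise held 2 peaks (NCBI gene 15396; chromosome 6, 52242105 to 52245810). The higher, at 52245030 to 52245762, stood at 6.74 (5.53 to 8.13) on 106 fragments over a background of 14.9, with its summit 379 bp from the gene start. The other, at 52243351 to 52243702, stood at 5.96 (4.63 to 7.56) on 66 fragments over 10.2. Its interval overlapped those of both Hoxa10 peaks, while that of the higher Hoxa11 peak lay above that of the lower Hoxa10 peak. Both Hoxa11 summits lay in non-coding RNA genes too, the higher in Hoxa11os, which is transcribed from the opposite strand of Hoxa11, and the lower in LOC115490410. A further peak of 4.59 (3.27 to 6.28), at 52246047 to 52246689, lay in Hoxa11os outside the Hoxa11 span. Without strand, fragments of Hoxa11 and Hoxa11os cannot be told apart.

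Hoxa9, a gene of the oviduct end of this series in the female tract, held peaks of 6.61 (4.56 to 9.29) on 31 fragments and 3.48 (2.5 to 4.72) on 39, and neither summit lay in another gene. Hoxa13, which is known from the vagina and external genital region, held no peak. Hoxa9, Hoxa10 and Hoxa11 stood between 5.92 and 6.74 at their highest peaks, with intervals that overlapped.

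In HoxD, Hoxd11, a partner of Hoxa11 in limb and kidney development, stood highest among the posterior genes. Its 4 peaks ran along the span with fold enrichments of 3.10 (2.15 to 4.34), 5.44 (4.21 to 6.93), 7.77 (5.73 to 10.3) and 9.90 (7.88 to 12.3), in the order of their position from 5′ to 3′. The last, at chromosome 2, 74683733 to 74684472, rested on 80 fragments over 7.18, and the lower bound of its interval lay above the upper bounds of 8 of the other 21 Hox genes at their highest peak, Hoxa10 among them. Its interval overlapped that of Hoxa11. Hoxd10, a motor neuron patterning gene, also held 4 peaks, of 3.04, 4.53 (3.27 to 6.13), 3.01 and 2.38, over backgrounds of 7.88 to 17.9. Hoxd10 was therefore lower than Hoxd11 at its highest peak, with intervals that did not overlap. Hoxd9 held 1 peak in its span at 5.68 (4.13 to 7.64), and the peak upstream of it shown above stood at 5.59 (3.88 to 7.82). Hoxd12 and Hoxd13, the latter a digit patterning gene, held none.

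The other posterior peak was in Hoxc11, at 5.33 (2.73 to 9.64) on 9 fragments over 0.875, with its summit 113 bp from the gene start. The posterior genes with no peak were Hoxa13, Hoxb9, Hoxb13, Hoxc9, Hoxc10, Hoxc12, Hoxc13, Hoxd12 and Hoxd13. By paralogue group, group 11 held a peak in 3 of 3 genes, at 6.74 in Hoxa11, 5.33 in Hoxc11 and 9.90 in Hoxd11, group 10 in 2 of 3, and group 9 in 2 of 4. The intervals of the 3 group 11 genes at their highest peaks overlapped.

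**Figure D4:**
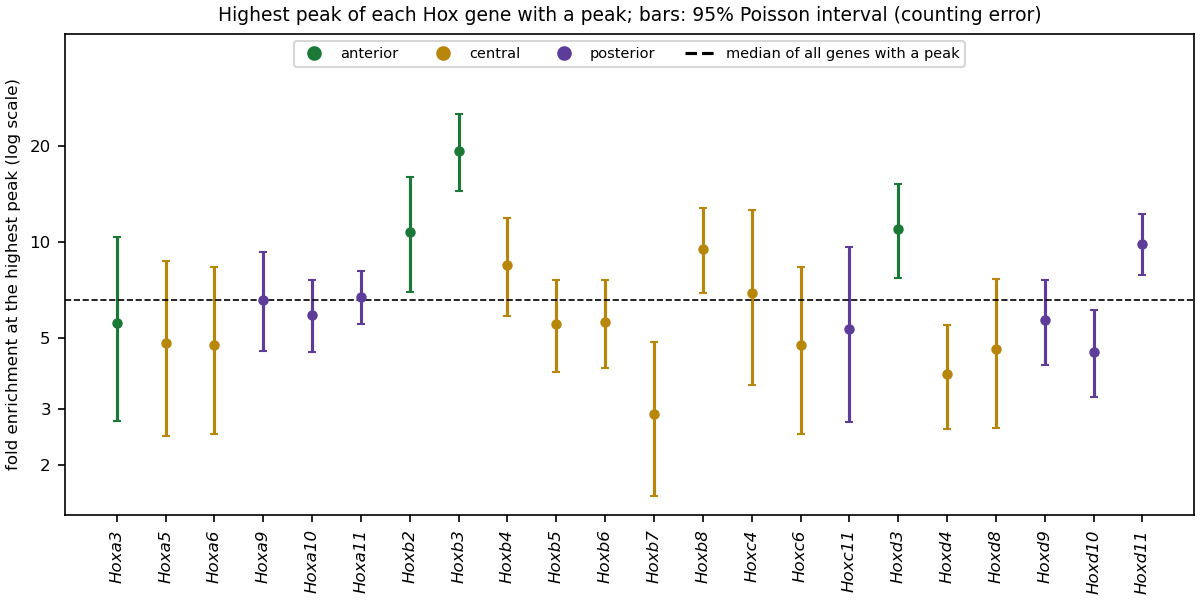
Fold enrichment at the highest peak (vertical axis, log scale) of the 22 Hox genes with a peak, ordered by cluster and paralogue group and coloured by class; bars are 95% Poisson intervals for counting error, and the dashed line is the median, 6.61, over all protein-coding genes with a peak. Hoxb3 stands highest at 19.3, and the HoxC intervals are wide because they rest on few fragments.

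By the highest peak of each gene, the top 3 of the family were the anterior genes Hoxb3, Hoxd3 and Hoxb2. Hoxb3, which patterns the pharyngeal region and hindbrain, reached 19.3 (14.5 to 25.3) at chromosome 11, 96345648 to 96346921, on 51 fragments over a background of 1.69. It ranked 115 of the 6717 protein-coding genes with a peak, and its lower bound lay above the upper bounds of 19 of the other 21 Hox genes. The exceptions were Hoxb2 and Hoxd3. A second Hoxb3 peak at 96343923 to 96344691 stood at 12.2 (9.23 to 15.9) on 54 fragments. Both summits also lay in the non-coding gene Hoxb3os, so they cannot be assigned to Hoxb3 alone.

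Hoxd3 held 8 summits, the most of any Hox gene, 3 of them shared with Hoxd4. Its highest peaks were 10.98 (7.70 to 15.2) at chromosome 2, 74746152 to 74747431, and 8.61 (6.04 to 11.9) at 74743970 to 74744502, each on 34 fragments and in no other gene of the table. The remaining 6 peaks stood between 2.87 and 5.15. Hoxa3 held 4 summits, 2 of them shared with Hoxa5 or Hoxa6, and its highest stood at 5.58 (2.76 to 10.4) on 8 fragments. In all 3 genes of group 3 the highest peak lay near the 3′ end of a long span, 2020 bp from the end of Hoxb3, 1930 bp from that of Hoxd3 and 3330 bp from that of Hoxa3, a likeness picked out after the values were seen. The interval of Hoxa3 overlapped that of Hoxd3 but not that of Hoxb3.

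Hoxb2, a hindbrain segment gene, was the other anterior gene with a peak. It stood at 10.8 (7.0 to 16.0) on 23 fragments over 1.23 and at 4.50 (2.23 to 8.39) on 8, with both summits also in Hoxb3os. Hoxa2, Hoxb1 and Hoxd1, which act in the hindbrain or on the anterior body axis, held no peak.

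Central genes were mostly low, with a median of 4.84 at the highest peak of 11 genes. Above the median of other genes were Hoxb8, Hoxb4 and, on few fragments, Hoxc4. Hoxb8 held 2 peaks in no other gene, of 9.55 (6.95 to 12.8) on 42 fragments and 7.27 (5.49 to 9.44) on 54. Hoxb4, known for its effect on blood stem cells, reached 8.49 (5.89 to 11.9) on 32 fragments, with both of its summits also in the Hoxb3 span. The peak upstream of the Hoxb4 start, shown above, stood at 4.80 (3.27 to 6.82) and was counted under Hoxb3. Hoxb5 and Hoxb6, with summits that all lay in Hoxb5os as well, reached 5.53 (3.92 to 7.60) and 5.61 (4.03 to 7.62). Hoxb7 held the lowest highest peak of the family, 2.89 (1.60 to 4.88) on 12 fragments.

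Outside HoxB the central genes rested on few fragments or had low ratios. Hoxa5, a lung and skeletal patterning gene, stood at 4.84 (2.47 to 8.74) on 9 fragments and Hoxa6 at 4.76 (2.51 to 8.38) on 10. Hoxc4 reached 6.96 (3.56 to 12.6) on 9 fragments at a background of 0.438, and Hoxc6 reached 4.76 on 10. Hoxd8, with the stretch rich in the C triplets shown above, stood at 4.63 (2.62 to 7.69) on 13 fragments over 2.02. Hoxd4 held 3 peaks of 2.87 to 3.85, all in the Hoxd3 span. Hoxa4, Hoxa7, Hoxc5 and Hoxc8 held no peak. The Hoxd8 peak, whose stretch held the most matches of those shown, was below the family median of 5.65.

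Fold enrichment and background ran in opposite directions in the family. Each peak was assigned to the Hox gene with the nearest start among those whose span held its summit. By this rule the 16 posterior peaks had a median background of 9.46 fragments (0.875 to 26.7), the 19 central peaks 3.59 and the 13 anterior peaks 2.19. The median numbers of fragments were 44.5, 28 and 23, and the median fold enrichments 5.39, 4.76 and 5.58. Over the 48 Hox peaks the Spearman correlation of fold enrichment with background was -0.38, and over all 21192 peaks it was -0.47. The peaks come from the same pair of libraries and the background is the denominator of the ratio, so the value is a description only. The part of the background in the differences between classes was not tested.

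Set against all peaks of like background, Hox peaks were not uniformly high or low. Below a background of 2 fragments 3 of 11 Hox peaks lay above the median of all peaks (6.48), from 2 to 5 fragments 7 of 11 lay above 5.65, from 5 to 10 fragments 10 of 17 lay above 4.61, and at 10 or more 4 of 9 lay above 3.59. Those above in the highest class were both Hoxa11 peaks, a Hoxa10 peak and a Hoxd11 peak. The smallest fold enrichment in the whole list fell from 3.17 in the lowest class to 1.61 in the highest, so weak sites on transcripts of low background were not detectable.

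**Figure D5:**
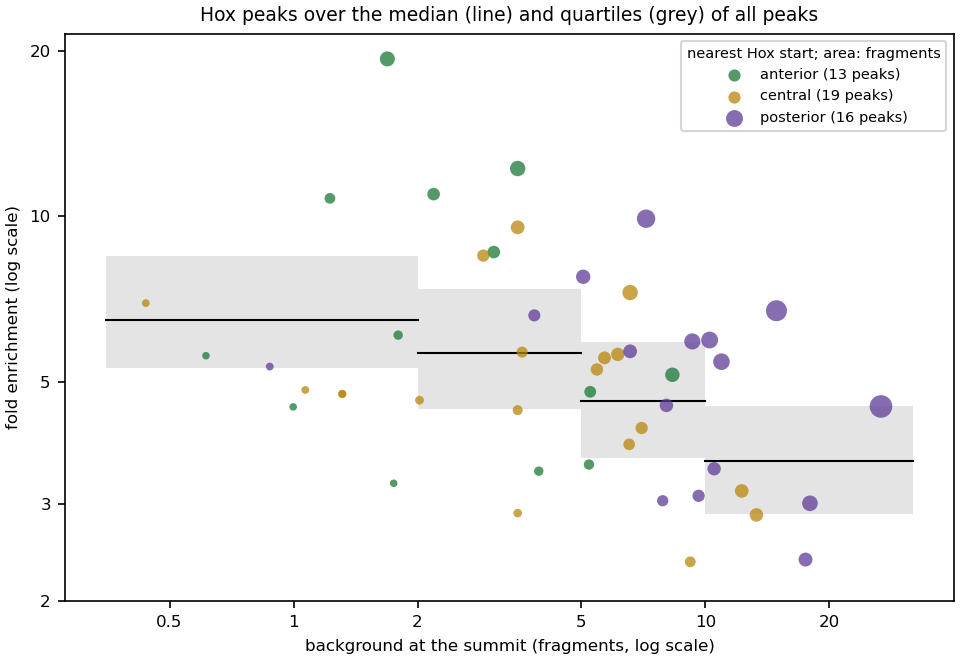
Fold enrichment (vertical axis, log scale) against background at the summit (horizontal axis, fragments, log scale) for the 48 Hox peaks, with area proportional to the fragment number plus a constant. Colour gives the class of the Hox gene with the nearest start among those whose span holds the summit. Lines and grey boxes are the median and quartiles of all peaks in 4 classes of background; the posterior peaks lie mostly to the right, with a median background of 9.46 against 2.19 for anterior peaks.

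Within the spans, 16 of the 41 peaks in a single Hox gene (39.0%) lay in the first 50% of the gene from its 5′ end. Among 8328 peaks in a single other protein-coding gene of known strand and of the same range of spans the share was 35.3%. The shares were close, without an interval, and the other genes were matched only for the range from the shortest to the longest Hox span.

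Hox proteins bind DNA together with TALE homeodomain cofactors. Of 9 such genes, 5 held a peak, where 30.7% of all protein-coding genes did. Their median at the highest peak was 8.44 (6.61 over all protein-coding genes with a peak), with the highest fold enrichments in Meis3 at 12.2 (7.52 to 19.0), Pknox2 at 11.9 (8.51 to 16.2) and Pbx2 at 8.44 (6.01 to 11.6). Pbx3, Pbx4, Meis1 and Pknox1 held none. Of 8 relatives and neighbours of the clusters, among them Evx1, Evx2, Gsx1, Gsx2 and Pdx1, 0 held a peak, where 30.7% of all protein-coding genes did; the list is short and the difference was not tested. Among 15 other homeobox genes, not matched for span, 11 held a peak against the same 30.7%, with a median of 7.998. The highest were Emx2 at 19.0 (15.02 to 23.8), Pax2 at 16.0 (11.3 to 22.0) and Msx1, a gene of uterine receptivity, at 13.6 (10.7 to 17.0). Msx2, Lhx1 and Lhx9 were among those that held none.

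Of 9 genes described as targets of Hoxa10 or Hoxa11 in the uterus, 4 held a peak, beside 30.7% of all protein-coding genes, and their median at the highest peak was 11.2. The 3 highest were Emx2, the prostaglandin receptor Ptger3 at 12.5 (8.24 to 18.2) and the progesterone receptor Pgr at 10.02 (8.34 to 11.9). The 5 with no peak were Itgb3, Igfbp1, Fkbp4, Cdkn1a and Lif. At their highest peaks the intervals of Emx2, Ptger3 and Pgr lay above those of both Hoxa10 and Hoxa11, on different transcripts and at different backgrounds. The interval of the remaining target with a peak, Ptger4 at 6.89 (4.72 to 9.74), overlapped those of both genes.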

How the data were processed

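One peak list of the series was used, in narrowPeak layout with 10 columns. Per the submitters' processing notes, HISAT2 2.2.1, MACS3 3.0.0a7 and the mm10 build were used; filters are not given in the sources used here. The deposited fold enrichment is a ratio by the authors' peak caller, and the authors also deposited a −log10 p-value, a −log10 q-value and a score for each peak; the largest q was 0.0499 and 0 peaks had a strand. Whether the input library set every background is not given in the sources used here.

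For each peak the whole fragment number was sought for which the fold enrichment (with a pseudocount of 1) and the Poisson p-value both match, with a relative tolerance of 1e-05 in −log10 p. It was found for 21192 of 21192 peaks, the next best number matched in 0, and the step was tested on simulated data. Poisson intervals take the background as known, and PCR copies were not told apart. Read totals were not used here.

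Genes, strands and sequences came from RefSeq tables of GRCm38.p6, the assembly of mm10. Chromosome positions count from 1, and no exon annotation was used. Anterior genes are paralogue groups 1 to 3, central 4 to 8 and posterior 9 to 13. Every Hox gene is counted, and some genes are not reported here by name. Of each other list the 3 highest genes and up to 5 with no peak are named. Ptger4, Ezh2, Cbx2, Kmt2a, Ctcf, Kdm6a, Hoxaas3 and Hoxd3os1 were named after their values were seen. The members and lists were chosen with earlier results of these data known. No test was made, as each group had 1 library. Alternatives changed the peaks kept and the rule that assigns them. Python 3.11.15, scipy 1.17.1, pandas 2.3.3, biopython 1.88 and matplotlib 3.10.9 were used.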

Additional observations from a re-analysis of the deposited data

How the results depend on the processing

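Of 74 values under alternatives, 57 lay within 1.5 times the reported count or, for the median fold enrichment, within its counting interval (3.97 to 8.56). With −log10 q of at least 10, Hox genes with a peak fell from 22 to 13 and peaks from 48 to 23, with 4 central, 3 HoxA and 0 HoxC genes. With fold enrichment at or above the list's median, 13 genes and 20 peaks were left, with 4 central, 1 HoxC and 3 HoxD genes. With at least 20 fragments, 14 genes were left, with 5 central, 3 HoxA and 0 HoxC genes. These 3 filters remove peaks by construction. With summits in exactly 1 protein-coding span, 7 central genes were left. With summits in exactly 1 gene of any kind, an alternative added after the data were seen, 12 genes and 25 peaks were left, since shared summits were dropped. Overlap in place of summits, spans longer by 1000 bp and a limit of 631 bp on width moved no count past 1.5 times. No paired analysis was possible because each group had 1 library. HoxC summits held 9 to 19 fragments, and the lowest summits of HoxA and HoxB held 8.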

Other observations

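Peaks within the 4 clusters but outside every Hox span numbered 5. In HoxA they lay in Gm52902 between Hoxa9 and Hoxa10, at 3.25 (2.14 to 4.73), and in Hoxa11os, at 4.59 (3.27 to 6.28). In HoxB they lay in the long gap between Hoxb13 and Hoxb9, at 6.96 (3.56 to 12.6) in the pseudogene Gm11539 and at 7.46 (4.22 to 12.4) in no gene of the table, on 9 and 13 fragments. In HoxD 1 peak lay before Hoxd9, at 5.59 (3.88 to 7.82).

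Of 16 non-coding genes listed within the clusters, 5 held a summit. Among protein-coding genes, to which they were not matched in kind or span, 30.7% did. The 5 were Hoxa11os, Hoxaas3, Hoxb3os, Hoxb5os and Hoxd3os1. In each of them the highest summit was also in a Hox gene. The known regulators Hotair, Hottip, Hotairm1 and Haglr held none, and neither did any of the 6 microRNA genes. Of 12 chromatin regulators of the clusters, not matched for span, 8 held a peak, against 30.7% of all protein-coding genes, with a median of 10.1 at the highest peak against 6.61. The highest were Men1 at 17.8 (12.4 to 24.6), Kdm6b at 16.9 (13.7 to 20.5) and Kmt2d at 16.0 (12.2 to 20.6), of which Men1 and Kmt2d belong to histone methyltransferase complexes of active genes and Kdm6b removes a repressive mark. The 4 with no peak were the Polycomb components Eed, Suz12, Bmi1 and Rnf2, and the Polycomb components Ezh2 at 4.36 (3.03 to 6.10) and Cbx2 at 5.62 (3.11 to 9.49) held one. The others with a peak were Kmt2a at 11.1 (8.36 to 14.5), Ctcf at 9.13 (5.81 to 13.7) and Kdm6a at 4.86 (3.15 to 7.19). A difference between kinds of regulator was not tested.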
